A study of Mus musculus with 8 samples.

Results

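Proteoglycans are proteins that carry glycosaminoglycan chains, and hyaluronan is a glycosaminoglycan made without a protein core. The 10 genes described here, of 55359 gene identifiers in the deposited table, were taken by name. They comprise 5 small leucine-rich proteoglycans (Bgn, Dcn, Fmod, Omd and Lum), 2 large proteoglycans (Vcan and Hspg2) and the 3 hyaluronan synthases (Has1, Has2 and Has3). All 10 were found in the table. They were measured by RNA sequencing of poly(A) RNA in MLO-Y4, an osteocyte-like mouse line (osteocytes are the cells that lie within mineralized bone). The labels give its genotype as wild type. The line was derived from bone of mice carrying a viral large T-antigen transgene under the osteocalcin promoter, and both groups share that background. In 4 libraries the cells were non-irradiated, and in the other 4 they had been exposed for 1 min to a pulsed Er:YAG laser (2940 nm) at a fluence of 6 J/cm2. Cells grew on plates coated with rat tail type I collagen, were seeded 72 h before exposure and had their medium removed for it. RNA was taken 6 h afterwards. Whether non-irradiated cells also went without medium is not given in the sources used here, so removal of the medium and the laser cannot be told apart. The labels do not say whether the 4 libraries of a group came from separate cultures, so the p-values measure only the spread between these libraries, which may be technical.

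Small leucine-rich proteoglycans bind collagen fibrils and growth factors in connective tissue, and biglycan and decorin are among the main proteoglycans of bone. Versican (Vcan) is a large chondroitin sulfate proteoglycan that binds hyaluronan, and perlecan (Hspg2) is a heparan sulfate proteoglycan of basement membranes and of the space around osteocyte processes. Hyaluronan synthases sit in the plasma membrane and build the polymer from UDP-glucuronic acid and UDP-N-acetylglucosamine, pushing it out of the cell as it grows. Cells then hold it through receptors such as CD44 and break it down with hyaluronidases.

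Library totals ran from 43786209 to 51734166 counts, and each library carries its column number, with C for non-irradiated cells (C5 to C8) and L for laser-exposed cells (L5 to L8). Levels are given in CPM, the count relative to the TMM-scaled library total. In bulk RNA, fewer cells expressing a gene and less RNA per cell cannot be told apart. A fold change is on the log2 scale and is positive where irradiated cells were higher. Of the 10 osteocyte markers examined, Pdpn and Gja1 were abundant (486.8 and 250.1 CPM in non-irradiated cells). Sost, Mepe and Fgf23 had 0 counts in every library, so those markers of mature osteocytes were not seen. Dmp1 had 82 counts over all libraries (0.108 CPM without and 0.327 CPM with irradiation) and was not tested. The sum of the 10 ran from 1571 to 1615 CPM without and from 1780 to 1841 CPM with irradiation. Pdpn (608.4 CPM with irradiation), Gja1 (318.4) and Mmp14 (381.5 and 462.1) were higher (edgeR adjusted p = 4.88e-07, 1.84e-07 and 9.04e-06). Capg was lower (437.9 and 391.5 CPM, edgeR adjusted p = 0.000324), and Phex and Irx5 did not pass. Among markers of other cells, Acan, Col9a1 and Snorc of cartilage, Ptprc, Adgre1 and Acp5 of macrophages and osteoclasts, and Cdh5, Kdr and Emcn of endothelium were at 0 throughout. The summed level of 9 cartilage markers nonetheless ran from 143.7 to 148.3 CPM without the laser and from 211.4 to 229.4 CPM with it, nearly all of it Sox9 (138 and 214.2 CPM). The other tested cartilage markers did not follow: Col11a2 was lower after irradiation (4.62 and 2.18 CPM, edgeR adjusted p = 0.000538), and Col2a1 (2.79 and 2.78 CPM) and Matn3 (0.434 and 0.334 CPM) did not pass. The sum of 8 macrophage and osteoclast markers ran from 17.3 to 20.9 CPM without and from 28.1 to 31.4 CPM with irradiation. Csf1r made up most of it (14.2 and 26.2 CPM, edgeR adjusted p = 1.06e-07), while Cd68 (4.45 and 3.52 CPM) did not pass. The sum of 8 tenocyte and fibroblast markers ran from 230.4 to 248.6 CPM without and from 260.2 to 284.4 CPM with irradiation, with Tnmd and Mkx at 0. Pdgfra made up nearly all of it (229.8 and 261.6 CPM, edgeR adjusted p = 0.000823), while Scx, Dpt and Pi16 did not pass. The part of these markers in the results below was not tested. C6 stood apart from the other non-irradiated libraries on the second principal component (-21.19 against 8.21 to 11.65), and L5 and L7 lay at opposite ends of the irradiated ones (-29.34 and 33.2).

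Of the 3 hyaluronan synthase genes, Has1 and Has2 rose after irradiation and Has3 did not pass the test, and no proteoglycan core protein of the set passed the test in either direction as fitted here. Has2 rose 1.33-fold and Has1 1.12-fold, each with every irradiated library above every non-irradiated one. These were 2 of the 10 members. Among all 15164 genes tested, 8.22% were called higher and 6.75% lower, or 15% in either direction (quasi-likelihood test of edgeR, adjusted p under 0.05 after Benjamini and Hochberg). Of these calls 54.9% were higher, and 43.8% with library totals alone as the scaling. Of the 10 members 9 passed the filter on low counts and Lum did not. Omd passed it through the non-irradiated libraries alone (4 at or above the limit of 0.21 CPM, against 0 irradiated ones), so its lower values after irradiation are given as a description. Apart from Omd, the groups failed to overlap for Has1 and Has2 (above) and Bgn (below). Groups failed to overlap in 18.5% of all tested genes (9.76% above and 8.78% below).

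**Figure D1:**
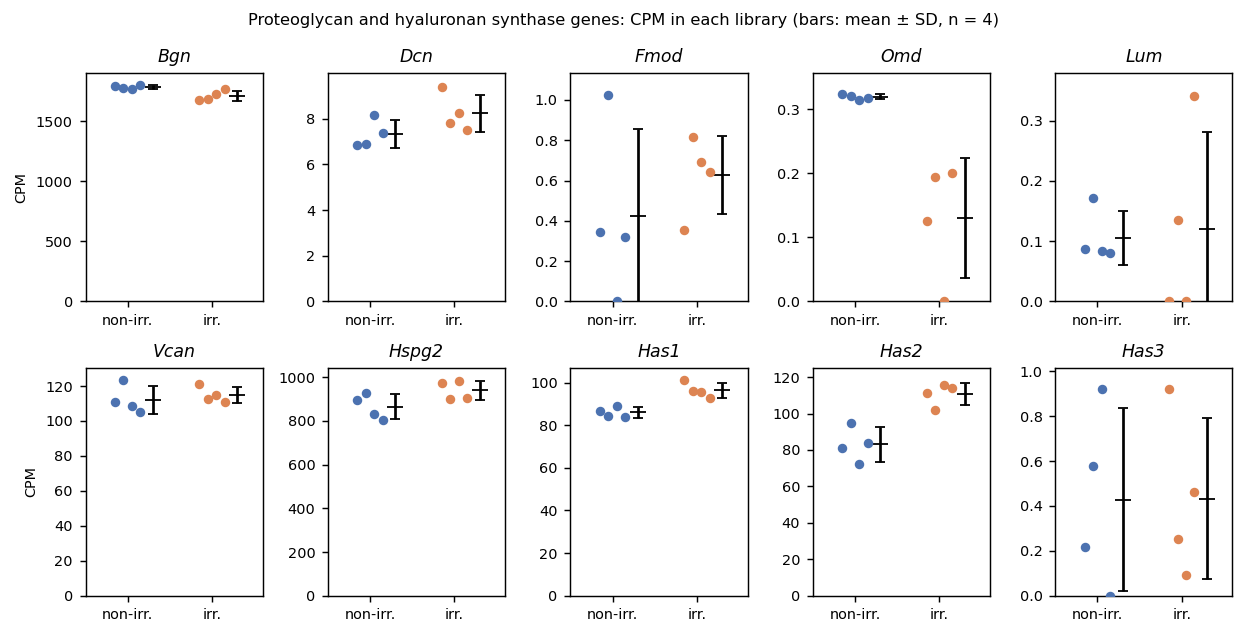
Level of each of the 10 genes in CPM (linear axes from 0, scaled per gene) in 4 non-irradiated (blue) and 4 irradiated (orange) libraries; black marks are the mean and SD, and bars that would pass below 0 are cut there. Has1 and Has2 are higher in all 4 irradiated libraries, Bgn is slightly lower in all 4, and Fmod, Omd, Lum and Has3 lie near or below 1 CPM.

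Has2, which encodes the synthase regarded as the main source of hyaluronan in many mesenchymal cells, changed most among the members that were well above the detection limit. It stood at 81.0, 95.1, 72.1 and 84.0 CPM in C5 to C8 and at 111, 101.9, 115.9 and 114.1 CPM in L5 to L8. Non-irradiated libraries were the more spread out of the groups, with C6 highest and C7 lowest, and the lowest irradiated library (L6) still lay above C6. Group means were 83.0 ± 9.47 and 110.7 ± 6.23 CPM (SD, n = 4 each), a log2 fold change of 0.42 (SE 0.071, edgeR adjusted p = 0.00135). Among all tested genes, 7.09% had a larger positive log2 fold change. Without C6 the log2 fold change of Has2 was 0.49, and without C7 it was 0.35.

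Has1 encodes another synthase of the same family. Its CPM values were 86.6, 84.5, 89.2 and 83.8 in C5 to C8 and 101, 96.1, 95.4 and 92.7 in L5 to L8. The groups lay close together without overlapping, and C7, the lowest non-irradiated library for Has2, was the highest for Has1. Means were 86 ± 2.43 and 96.3 ± 3.45 CPM (SD, n = 4 each), with a log2 fold change of 0.16 (SE 0.0414, edgeR adjusted p = 0.0102). L5 was the highest irradiated library, and without it the adjusted p was 0.05004, just past the threshold. Without L5 and L7 together it was 0.153, and over all alternatives it ran from 0.00166 to 0.153.

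Has3, the synthase known for making shorter hyaluronan chains, was near the detection limit in these cells. It had 10, 27, 44 and 0 counts in C5 to C8 and 44, 13, 4 and 23 counts in L5 to L8. Libraries of both groups covered the same range, with totals of 81 counts without and 84 with irradiation. Its log2 fold change of 0.02 had an SE of 0.894, so changes of the size seen for Has2 were not detectable at this depth (edgeR adjusted p = 0.994). Exons of Has3 overlap those of Chtf8 on the opposite strand, a gene with 6484 to 7401 counts a library. Another entry of the symbol Chtf8, also on the opposite strand, overlaps Has3 and ran from 4 to 490 counts a library. Without knowledge of strand in the counting, reads of Has3 and these entries cannot be told apart. Has2 likewise overlaps the antisense RNA gene Has2os, which held 38 to 96 counts a library, at most 2.16% of the Has2 count (Has2os log2 fold change 0.30, edgeR adjusted p = 0.562).

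Summed over the synthases, the level was 167.8, 180.1, 162.2 and 167.7 CPM in C5 to C8 and 212.9, 198.2, 211.4 and 207.3 CPM in L5 to L8. Every irradiated library was above every non-irradiated one, and the ratio of means was 1.22. Per kilobase of the longest annotated transcript, Has1 was above Has2 in non-irradiated cells, with levels of 24.3 ± 0.685 and 19.6 ± 2.23 CPM per kilobase whose ranges did not overlap. In irradiated cells the levels were 27.2 ± 0.976 and 26.1 ± 1.47 CPM per kilobase and the ranges overlapped. The share of Has2 in the synthases' length-corrected counts was 43.9, 48.4, 40.2 and 45.6% in C5 to C8 and 47.7, 46.9, 50.4 and 50.6% in L5 to L8. C6 lay among the irradiated libraries in this share. Whether Has2 rose more than Has1 was tested on their ratio within each library, which does not depend on how libraries are scaled. The log2 ratio of Has1 to Has2 went from 0.06 ± 0.20 to -0.20 ± 0.11 (SD, n = 4 each), a difference of -0.26 (SE 0.113). This did not pass (exact permutation test, two-sided, p = 0.0857, where 0.0286 is the smallest p that 4 against 4 libraries allow). After Benjamini-Hochberg adjustment over 10 pairs of members the p was 0.143. The adjusted p of any pair could fall under 0.05 only if most of the 10 pairs reached that smallest p. Several pairs hold Fmod, Omd or Has3, which were near the detection limit, so the adjusted values decide little.

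**Figure D2:**
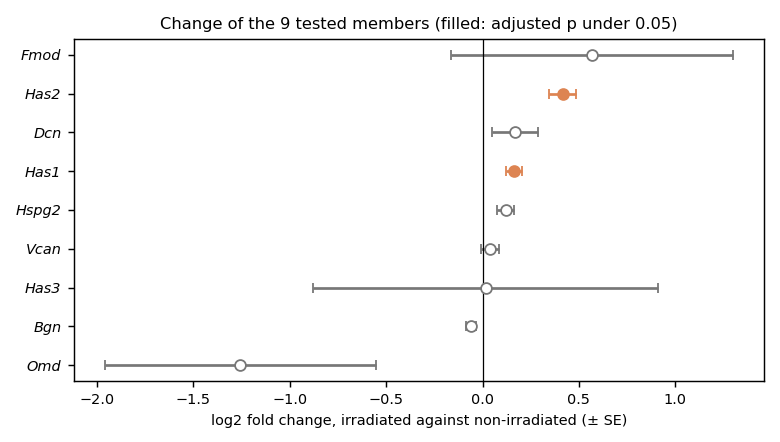
Log2 fold change (irradiated against non-irradiated) with its SE for the 9 members that passed the filter on low counts, ordered by size. Filled symbols have an adjusted p under 0.05. Omd passed the filter through the non-irradiated libraries alone and is shown as a description. Has1 (0.16) and Has2 (0.42) are filled. Bgn (-0.06), Vcan (0.04) and Hspg2 (0.12) are open with short error bars, and Fmod, Omd and Has3 have error bars of 0.70 to 0.89.

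Bgn, the gene of biglycan, was by far the most abundant member. Its levels were 1790.0, 1774, 1772 and 1803 CPM in C5 to C8 and 1673, 1684, 1725 and 1767 CPM in L5 to L8, placing it above 99.9% of tested genes in non-irradiated cells. All irradiated libraries were below all non-irradiated ones, L8 by little. The means of 1785 ± 14.7 and 1712 ± 42.6 CPM (SD, n = 4 each) differed by a log2 fold change of -0.06 (SE 0.0248), which did not pass (edgeR adjusted p = 0.118, unadjusted p = 0.0257). Scaling by library totals alone put the log2 fold change at -0.08 and the adjusted p at 0.0242. Bgn accounted for 58.9 to 62.4% of the counts of all 10 members in non-irradiated libraries and for 55.9 to 58.9% in irradiated ones.

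Dcn, the gene of decorin, the closest relative of biglycan, was present at a small fraction of that level. It read 6.85, 6.91, 8.19 and 7.36 CPM in C5 to C8 and 9.39, 7.80, 8.24 and 7.53 CPM in L5 to L8. The groups overlapped, L5 being the highest library. Means were 7.33 ± 0.617 and 8.24 ± 0.821 CPM (SD, n = 4 each), and the log2 fold change of 0.17 (SE 0.121) did not pass (edgeR adjusted p = 0.404). As a ratio within each library, Bgn to Dcn went from 7.93 ± 0.12 to 7.70 ± 0.17 on the log2 scale (exact permutation test, two-sided, p = 0.0571, or 0.143 adjusted over the 10 pairs).

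The remaining small leucine-rich members were at the edge of detection. Fmod (fibromodulin, a collagen fibril regulator of tendon and bone) had 16, 48, 0 and 16 counts in C5 to C8 and 17, 42, 30 and 32 in L5 to L8, and the groups overlapped. Its log2 fold change was 0.57 with an SE of 0.732 (edgeR adjusted p = 0.692). Omd (osteomodulin, a keratan sulfate proteoglycan of mineralized tissue) had 15, 15, 15 and 16 counts in C5 to C8 and 6, 10, 0 and 10 in L5 to L8. Non-irradiated libraries were all above irradiated ones, on 61 against 26 counts in total. The log2 fold change of -1.26 had an SE of 0.701. As Omd passed the filter through the non-irradiated libraries alone, these values are a description and no test is drawn from them. Lum (lumican) had 4, 8, 4 and 4 counts in C5 to C8 and 0, 7, 0 and 17 in L5 to L8, with both the lowest and the highest values among irradiated libraries, and it was not tested. In a library at 0 the limit is 3 counts, or 0.058 to 0.0685 CPM depending on the library, and it covers counting error only. Among genes averaging 5 to 100 counts, the variance over the mean had a median of 4.21 without and 4.32 with irradiation, so these low values are less certain than their counts imply.

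Hspg2, the gene of perlecan, was the second most abundant member. It stood at 896.7, 927.5, 830.9 and 803.5 CPM in C5 to C8 and at 972.9, 898.6, 983.8 and 905.1 CPM in L5 to L8. L6 and L8 lay within the non-irradiated range and L5 and L7 above it. The means of 864.6 ± 57.3 and 940.1 ± 44.5 CPM (SD, n = 4 each) gave a log2 fold change of 0.12 (SE 0.0448), which did not pass (edgeR adjusted p = 0.0924, unadjusted p = 0.0181). The call depended on the fit: Hspg2 passed without C6 (log2 fold change 0.16, edgeR adjusted p = 0.0138), without both libraries numbered 6 (edgeR adjusted p = 0.00954) and with DESeq2 (adjusted p = 0.0294), and without L5 and L7 its log2 fold change was 0.06.

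Vcan, the gene of versican, showed no detectable difference. It read 111, 123.3, 108.3 and 105 CPM in C5 to C8 and 121.3, 112.8, 114.8 and 110.7 CPM in L5 to L8. The irradiated libraries all fell inside the non-irradiated range, whose top was C6. Group means were 111.9 ± 7.98 and 114.9 ± 4.6 CPM (SD, n = 4 each), with a log2 fold change of 0.04 (SE 0.0473, edgeR adjusted p = 0.67). The log2 ratio of Vcan to Hspg2 averaged -2.95 ± 0.04 without and -3.03 ± 0.05 with irradiation (exact permutation test, two-sided, p = 0.0857, or 0.143 adjusted over the 10 pairs).

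Ordered by CPM per kilobase of the longest transcript in non-irradiated cells, Bgn (669.5) came first, followed by Hspg2 (60.9), Has1 (24.3), Has2 (19.6), Vcan (9), Dcn (1.56), Omd (0.142), Fmod (0.135), Has3 (0.0725) and Lum (0.043). Neighbours from Bgn down to Omd did not overlap in their ranges over the 4 libraries. Omd, Fmod, Has3 and Lum each overlapped the next, so their order is not resolved. In irradiated libraries the same neighbours were separate except Has1 and Has2. The place of Vcan depends on which transcript is taken as its length, since per kilobase of the median annotated transcript it reached 49.2 CPM and lay above Has1 at 30.5. Summed over the 10 members the level was 2939 ± 65 CPM without and 2984 ± 59.1 CPM with irradiation (SD, n = 4 each), a ratio of 1.01. Within that near-constant sum the small leucine-rich genes were at a ratio of 0.96, the large proteoglycans at 1.08 and the synthases at 1.22. The first ratio is nearly that of Bgn alone (99.5% of small leucine-rich counts in both groups), and Hspg2 held most of the large class. Neither gene passed the test as fitted here.

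Promoter sequences are shown for Has1, the called gene that has an entry, and for Bgn and Hspg2, the most abundant members. They are the 250 bases before the annotated start from RefSeq on GRCm38.p6, 5′ to 3′ on the gene's own strand, and entries were found for 6 of the 10 members (Fmod, Hspg2, Omd, Vcan, Has1 and Bgn). The counts were made on GRCm39, so these coordinates were not joined to them. The stretches lie at chr17:17855189-17855438, minus strand (Has1), chrX:73483351-73483600, plus strand (Bgn) and chr4:137468553-137468802, plus strand (Hspg2). Capitals mark matches on either strand to the GC box GGGCGG or the cAMP response element TGACGTCA.
Has1: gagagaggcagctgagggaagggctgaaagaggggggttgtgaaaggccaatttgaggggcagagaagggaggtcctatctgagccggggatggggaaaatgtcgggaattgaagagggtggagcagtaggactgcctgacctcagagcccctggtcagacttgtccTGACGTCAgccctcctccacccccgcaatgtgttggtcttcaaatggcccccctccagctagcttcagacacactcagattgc
Bgn: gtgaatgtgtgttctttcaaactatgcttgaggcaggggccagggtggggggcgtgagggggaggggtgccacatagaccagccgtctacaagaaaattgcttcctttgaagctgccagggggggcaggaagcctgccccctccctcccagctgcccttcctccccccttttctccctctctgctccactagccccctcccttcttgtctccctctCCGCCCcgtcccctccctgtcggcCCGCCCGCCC
Hspg2: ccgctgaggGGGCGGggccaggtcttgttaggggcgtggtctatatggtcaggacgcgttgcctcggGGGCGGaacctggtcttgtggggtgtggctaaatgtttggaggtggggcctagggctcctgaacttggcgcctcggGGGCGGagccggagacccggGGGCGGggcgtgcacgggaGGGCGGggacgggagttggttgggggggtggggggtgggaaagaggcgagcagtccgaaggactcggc
The Has1 stretch held 1 match to TGACGTCA, beginning 83 bases before the start, and no GC box, while none of the other 5 members' stretches held TGACGTCA. That motif, which reads the same on both strands, occurs in 1.55% of 32851 RefSeq promoter stretches of this length. GC boxes were found 3 times in Bgn, where 2 of them overlap, 5 times in Hspg2 and 2 times in Vcan, against 32.7% of all stretches with at least 1. The letters TATAAA (12.4% of all stretches) and TGANTCA, a form of the AP-1 site (6.75%), were in none of the 6. G and C made up 58% of the Has1, 64.4% of the Bgn and 70% of the Hspg2 stretch, and the median over all stretches was 52.4%. These matches describe the sequence only.

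Genes that supply, extend, modify or hold these chains were examined in 8 lists drawn up by function, with earlier results of these data known. Of their 89 tested genes 21 rose, 4 fell and 64 did not pass, so that 28.1% were called against 15% of all genes tested. The choice of lists may bear on this difference, which was not tested. The median log2 fold change was 0.07 over the 89 genes and -0.007 over all tested genes. Of 15 genes for nucleotide sugars and sulfate donors 5 rose and 0 fell (list median 0.07). Uap1, the enzyme that completes UDP-N-acetylglucosamine, read 161.8, 159.3, 150.3 and 154.9 CPM in C5 to C8 and 271.2, 256.7, 254.2 and 257.5 CPM in L5 to L8. Its log2 fold change of 0.73 (SE 0.0347, edgeR adjusted p = 4.43e-11) was larger than that of any called gene in the 8 lists. Ugdh, which oxidizes UDP-glucose to UDP-glucuronic acid, rose from 1317 ± 36.4 to 1631 ± 10.5 CPM (SD, n = 4 each; edgeR adjusted p = 4.7e-08). Gfpt1, the entry enzyme of hexosamine synthesis, rose 1.18-fold, and the sulfate transporter gene Slc26a2 1.16-fold (edgeR adjusted p = 0.000688 and 0.0196). Ugp2, which makes UDP-glucose and was named after its values were seen, rose 1.12-fold (edgeR adjusted p = 0.00355). Steps between these enzymes did not all pass: Gnpnat1 and Pgm3 had log2 fold changes of 0.03 and -0.05.

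**Figure D3:**
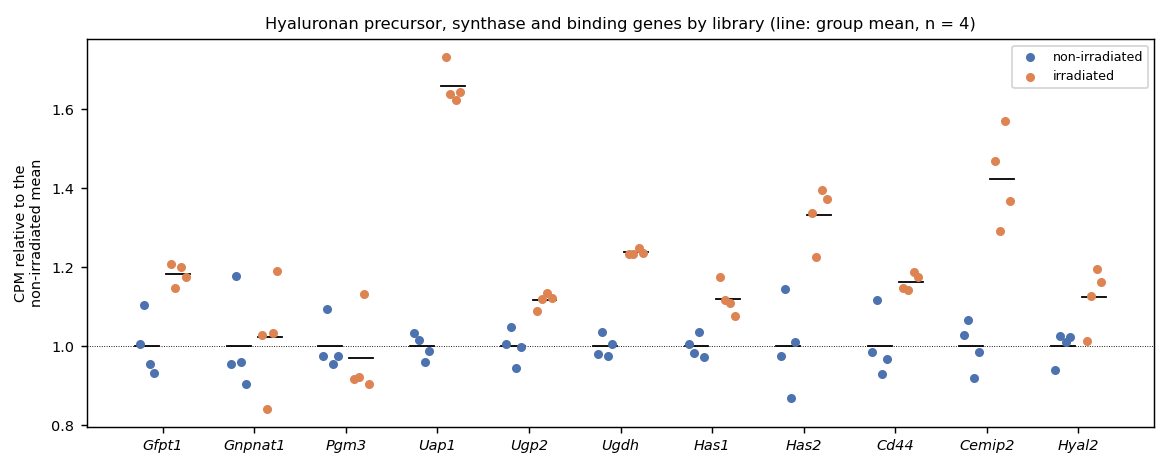
CPM of each library divided by the non-irradiated mean of the same gene, for 6 genes of nucleotide sugar supply, Has1, Has2 and 3 genes of hyaluronan binding or breakdown; blue is non-irradiated, orange irradiated, and lines are group means (n = 4). Every irradiated library is above every non-irradiated one for Gfpt1, Uap1, Ugp2, Ugdh, Has1, Has2, Cd44 and Cemip2, but not for Gnpnat1, Pgm3 and Hyal2.

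On the side of hyaluronan binding and breakdown 2 of 13 tested genes rose and 1 fell. Cd44, the main hyaluronan receptor, was at 839.4, 951.4, 791.7 and 825.5 CPM in C5 to C8 and 977.9, 973.4, 1012 and 1002 CPM in L5 to L8 (log2 fold change 0.22, SE 0.0452, edgeR adjusted p = 0.00464). C6 was again the highest non-irradiated library, as it was for Has2. Cemip2, described as a cell-surface hyaluronidase, rose 1.42-fold (edgeR adjusted p = 8.68e-06). Hmmr, a hyaluronan-binding protein that also serves the mitotic spindle, fell by 0.17 on the log2 scale (edgeR adjusted p = 0.00314).

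For the chains of proteoglycans, 5 of 16 linker and polymerization enzymes rose and 0 fell (list median 0.09). Xylt1, which attaches the first sugar to the core protein, rose 1.39-fold, B3galt6, which adds a galactose of the linker, 1.35-fold, and the chondroitin synthesis genes Chsy1 and Chpf2 1.28-fold and 1.26-fold (edgeR adjusted p = 0.000613, 0.00067, 1.84e-05 and 0.00011). The fifth was Ext1 of heparan sulfate polymerization, named after its values were seen (1.1-fold, edgeR adjusted p = 0.00976). Among 19 epimerases, sulfotransferases and sulfatases 2 rose and 1 fell, or 15.8% called, near the 15% of all tested genes. Chst11, a chondroitin 4-O-sulfotransferase, rose 1.45-fold and Ndst3 of heparan sulfate 1.39-fold (edgeR adjusted p = 0.005 and 0.0212). Sulf2, which removes sulfate groups from heparan sulfate outside the cell, was 1.17-fold lower (edgeR adjusted p = 0.0202).

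Other core proteins of the same families changed unevenly. Of 6 tested small leucine-rich relatives 0 passed in either direction (edgeR), and those with the lowest p were Tsku (log2 fold change 0.06) and Chad (0.78, SE 0.761). Of the 4 members of that class that passed the filter 0 were called, Omd being given as a description only. Among 7 tested genes of secreted, basement membrane and related core proteins 2 rose and 1 fell: Prg4, the gene of lubricin, rose from 594.1 ± 20.5 to 743.1 ± 28.9 CPM (SD, n = 4 each), the membrane-spanning Cspg4 rose 1.1-fold, and Col18a1, the gene of a basement membrane collagen with heparan sulfate, was 1.19-fold lower (edgeR adjusted p = 7.14e-07, 0.0063 and 0.000611). Syndecans, the transmembrane heparan sulfate proteoglycans, accounted for the 3 of 7 cell-surface genes that rose, with Sdc4 at 1.12-fold, Sdc3 at 1.12-fold and Sdc1 at 1.07-fold (edgeR adjusted p = 0.000865, 0.0382 and 0.0202). Sdc4 kept its call in all 18 alternatives, but Sdc3 lost it in 8 and Sdc1 in 7, library totals alone among them (edgeR adjusted p = 0.071 and 0.072). Of 6 tested proteases and heparanases, Adamts4 rose 1.28-fold and Htra1 1.09-fold, and Adamts5 fell by 0.32 on the log2 scale (edgeR adjusted p = 0.0139, 0.0129 and 0.00214). Adamts4 and Adamts5 encode proteases that cut aggrecan and versican.

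**Figure D4:**
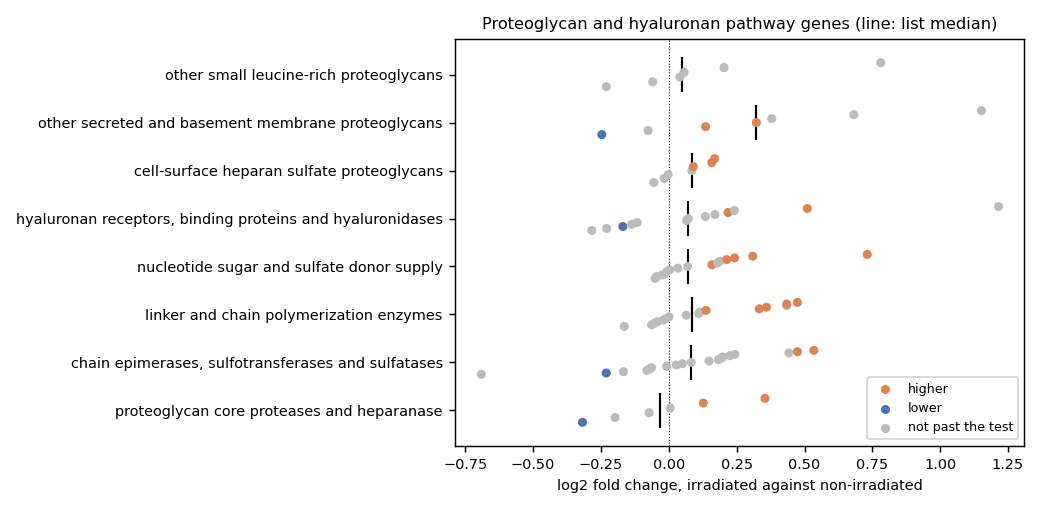
Log2 fold change (irradiated against non-irradiated) of each tested gene in the 8 pathway lists, 1 point per gene, orange where higher and blue where lower at an adjusted p under 0.05 and grey otherwise; vertical lines are list medians. Lists of donor supply and of linker and polymerization enzymes hold 5 orange and 0 blue points each, and the list of other small leucine-rich proteoglycans holds grey points alone.

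Correlated genes were ranked among tested genes with a symbol, leaving out predicted-gene, RIKEN and accession-like names. Those whose log2 CPM followed Has2 most closely over the 8 libraries were Elmo2 (Pearson r = 0.993), Mapk4 (0.992) and Thbd (0.989). For Has1 they were Dna2 (0.987), Ranbp3 (0.977) and Bicd2 (0.975). The lists share no gene. With 8 libraries and 15164 genes, values of this size describe the libraries, whose groups differ, and they carry no test.

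**Figure D5:**
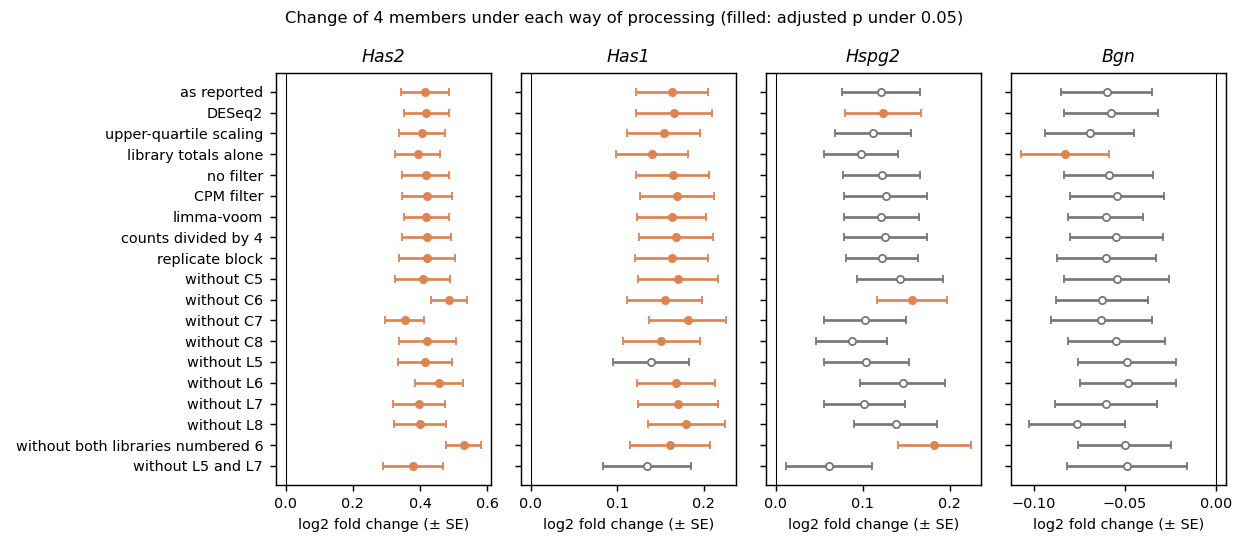
Log2 fold change with its SE for Has2, Has1, Hspg2 and Bgn (separate axes) as reported and under each of 18 other ways of processing or sets of libraries; filled symbols have an adjusted p under 0.05. Has2 is filled in every row (0.35 to 0.53), Has1 is open without L5 and without L5 and L7, Hspg2 is filled in 3 rows and Bgn in 1.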

How the data were processed

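The authors deposited a table of estimated counts per gene, whole numbers that were not normalized, for 8 libraries. The submitters' processing notes name Trimmomatic 0.39, FastQC 0.11.9, HISAT2 2.2.1, StringTie 2.1.7, DESeq2 1.32.0 and the build GRCm39. Their order and settings, the annotation and whether counting used strand were not stated. The value 4 occurs more often (6096 times) than 3 (4006) or 5 (2428), but less often than 1 (6623). Whether a fragment adds more than 1 count is therefore unsettled, and limits drawn from counts may be too small. Columns are numbered 5 to 8 and sample titles 1 to 4, so columns were tied to groups only. Symbols and transcript lengths came from GENCODE M21 by identifier (52083 of 55359 matched, with 99.64% of counts).

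Genes were kept by filterByExpr (minimum count 10; 15164 genes), scaled by TMM (factors 0.989 to 1.01) and tested with edgeR 4.0.16 in R 4.3.3 (glmQLFit, robust, group as the only term), with Benjamini-Hochberg adjustment over all genes and a threshold of 0.05. The SE is the log2 fold change divided by the square root of F. Ratios within a library used a pseudocount of 1 and SciPy 1.17.1. On counts simulated from these libraries' means and sizes (15164 genes, 100 changed per fold), 99% of 1.5-fold and 53% of 1.25-fold changes were recovered and 7.88% of calls were false. The changed genes averaged at least 1 CPM without irradiation, and every gene was given the median dispersion. Recovery for scarcer or more variable genes was therefore not measured. Alternatives used DESeq2 1.42.0, limma 3.58.1 (voom), other scalings and filters, counts divided by 4, a block on column number and each library left out.

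The members, lists and tests were chosen with earlier results of these data known. All 10 members are named. From each pathway list the text names up to 4 called genes of largest change (where none passed, the 2 of lowest p). Among tested pathway genes, Ugp2, Ext1, Gnpnat1, Pgm3 and Hyal2 are named or drawn outside this rule. For each called member it names the 3 most correlated genes, leaving out those without a symbol or with predicted-gene, RIKEN or accession-like names.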

Additional observations from a re-analysis of the deposited data

Results flagged for a closer look

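A library far from the other 3 of its group was found in 4 of the 70 gene and group combinations examined (35 named genes), all in non-irradiated cells, and chance alone flags about 1 in 20. Lum stood at 0.171 CPM in C6 against 0.0796 to 0.0861 in the other non-irradiated libraries, which is 8 counts against 4. Chad was at 0.474 CPM in C5 against 0.128 to 0.159. Tsku was at 86.4 CPM in C8 against 80.2 to 81, and Cspg4 at 260.5 CPM in C7 against 273.5 to 276.1.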

How the results depend on the processing

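Of the 18 alternatives, 16 were planned and the removal of both libraries numbered 6 and of L5 with L7 was chosen after seeing the data. Has2 kept its call in all 18 (log2 fold change 0.35 to 0.53, adjusted p up to 0.0294), and Has1 in 16. Without L5 and L7 the number of genes called fell to 618 higher and 405 lower, of members to 1 higher, and of pathway genes to 13 higher and 2 lower. With library totals alone 1 member, Bgn, was lower, and over all genes 1050 were higher and 1345 lower, 43.8% higher against 54.9% as reported; the median log2 fold change of all genes was -0.029 there. Leaving out each library in turn gave 976 to 1501 genes higher and 696 to 1172 lower, 1 to 3 members higher and 0 lower, and 16 to 24 pathway genes higher and 3 to 5 lower. The replicate block on column number gave 1006 genes higher and 751 lower, 2 members higher and 19 pathway genes higher. Same-numbered libraries did not deviate together (correlations -0.046 to 0.001, none best with its own number), so the numbers were not taken as pairs. Of the 23 called pathway genes named by the rule, 12 kept their call throughout. The others lost it under at least 1 alternative, among them Sdc1 (7 alternatives), Sdc3 (8), Sulf2 (6), Ndst3 (5), Slc26a2 (4) and Adamts4 (3), and Cspg4, Cd44, Hmmr, Chst11 and Htra1 only without L5 and L7; no direction turned. The cause of the lost calls was not tested. Fits with libraries left out had fewer samples, and the one without C6 called more genes than reported (1501 higher and 1172 lower). Has3 ran from -0.66 (without L5) to 0.89 (limma-voom), and the cause was not tested. Lum had no test under the filter, at 20 and 24 counts in total.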
